A study of Mus musculus with 18 samples.

Results

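The 7 genes described here, Hmgcs1, Idi1, Fdft1, Sqle, Lss, Cyp51 and Dhcr7, encode enzymes of cholesterol synthesis and were taken by symbol from a table of gene counts in mouse lenses. They were 7 of 26547 genes with at least 1 count, and all 7 passed the filter on low counts that left 13938 genes for testing. RNA of whole lenses, several pooled per library, was sequenced from C57BL/6J knock-in mice of 2 cataract lines. Lenses of the Cryaa line were collected at 2 days of age from wild-type mice (Cryaa-WT), heterozygotes (Cryaa-R49C-het) and homozygotes (Cryaa-R49C-homo) for an arginine-to-cysteine substitution in αA-crystallin. Lenses of the Cryab line were collected at 14 days of age from wild-type mice (Cryab-WT), heterozygotes (Cryab-R120G-het) and homozygotes (Cryab-R120G-homo) for an arginine-to-glycine substitution in αB-crystallin. Each of the 6 groups had 3 libraries, 18 in all, and since each line was sampled at its own age, line and age cannot be told apart.

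Cholesterol is built from acetyl-CoA in a long chain of reactions. The early steps make mevalonate and the isoprenoid units that are joined into farnesyl pyrophosphate, the middle steps join these into squalene and close it into lanosterol, and the late steps trim lanosterol to cholesterol. When sterols run low, the membrane-bound factor SREBP-2 is carried to the Golgi by Scap, is cleaved, and turns on nearly all genes of the pathway, while Insig proteins hold it back when sterols are plentiful. The fibre cells of the lens have plasma membranes that are very rich in cholesterol, the lens makes much of its own, and inborn or drug-induced defects of the pathway, among them defects in lanosterol synthase, are known to cause cataract.

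In these libraries none of the 7 genes differed by genotype in either line under the test used, and 1 of the 7, Dhcr7, was higher at 14 days than at 2 days under every scaling tried. Dhcr7, which encodes 7-dehydrocholesterol reductase, the enzyme of a last step to cholesterol, rose 5.45-fold in wild-type lenses (95% confidence interval 3.82 to 7.77) on the TMM scale. With library size as the only scaling its log2 difference was 0.87 (adjusted p = 0.021, edgeR), and its deposited RPKM values overlapped between the 2 wild-type groups. In the Cryaa line a single library, Cryaa-R49C-homo replicate 1, stood apart from the other 2 libraries of its group in 6 of the 7 genes. Under the test used, the calls for Cryaa-R49C-homo depended on it. A likelihood-ratio test with robust dispersions called Fdft1 lower in Cryaa-R49C-homo with all 3 libraries (adjusted p = 0.033 against Cryaa-WT). In the Cryab line, Cryab-WT replicate 1 had the lowest summed CPM of the 7 genes in its group.

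Upstream sequence is shown first for 3 of the genes, because Dhcr7 passed the test with age while Hmgcs1 and Lss, an early and a middle enzyme, did not. RefSeq starts on GRCm38.p6 were available for 5 of the 7 genes, all but Fdft1 and Sqle. Windows of 250 bases before the start (for Dhcr7, the most upstream of 3 starts) were searched on both strands for 3 motifs that do not overlap each other in the printed stretches: CACNCCAC, a loose form of the sterol regulatory element, CCAAT, the box bound by NF-Y, and GGGCGG, the GC box. Each printed stretch ends before the first base that the GENCODE vM21 annotation counts as an exon, is written 5′ to 3′ on the gene's strand, and has the matches in capitals (ATTGG and CCGCCC are CCAAT and GGGCGG read on the other strand).
Hmgcs1 (chr13:119690101-119690350, plus strand): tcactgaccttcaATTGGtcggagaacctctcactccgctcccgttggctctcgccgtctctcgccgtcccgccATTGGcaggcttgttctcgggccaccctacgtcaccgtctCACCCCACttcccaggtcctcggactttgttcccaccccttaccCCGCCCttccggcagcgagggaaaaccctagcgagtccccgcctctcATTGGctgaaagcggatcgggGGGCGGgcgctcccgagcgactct
Lss (chr10:76531355-76531587, plus strand): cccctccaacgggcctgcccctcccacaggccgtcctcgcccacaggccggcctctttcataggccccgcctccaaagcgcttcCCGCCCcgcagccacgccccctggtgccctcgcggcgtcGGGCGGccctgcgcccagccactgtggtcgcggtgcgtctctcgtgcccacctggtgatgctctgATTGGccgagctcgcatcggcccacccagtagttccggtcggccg
Dhcr7 (chr7:143822917-143823144, plus strand): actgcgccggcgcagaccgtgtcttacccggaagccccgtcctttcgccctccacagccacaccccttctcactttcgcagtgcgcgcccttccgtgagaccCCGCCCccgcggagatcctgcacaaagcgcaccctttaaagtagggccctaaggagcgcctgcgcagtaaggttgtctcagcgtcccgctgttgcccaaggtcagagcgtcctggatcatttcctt

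CCAAT was found in the window of 4 of the 5 genes, in 3 places in Hmgcs1, 2 in Idi1, 1 in Lss and 1 in Cyp51. The Dhcr7 window held none, which says only that these letters are absent from this window. Of all 32851 promoter windows of the same length 33.8% held CCAAT, and of the 16 enzymes of the pathway with an entry 14 did. CACNCCAC was found in 2 of the 16, in Hmgcs1 at 136 bases before the start and in Acat2, against 5.29% of all windows. GGGCGG was present in all 5 genes and in 32.7% of all windows.

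The level of each gene was read as CPM, its count relative to the total of the library after scaling with edgeR's trimmed mean of M values (TMM), which sets the bulk of genes to the same level between libraries. Total counts per library ran from 14272174 to 29639719. The scaling factors were 1.20 to 2.26 at 2 days and 0.488 to 0.774 at 14 days. The 10 most abundant genes held 59.6% to 73.6% of counts at 2 days and 74.6% to 78.2% at 14 days. CPM scaled in this way do not sum to the same total in each library. Of 11 lens fibre markers 10 passed the filter and Lim2 was at 0 in all 18 libraries, and their summed level was 58331 to 233910 CPM at 2 days and 525360 to 722280 CPM at 14 days. Photoreceptor markers were detected in every group, from 9.75 CPM in sum to 1307 CPM in a Cryab-R120G-homo library. In whole-lens RNA, fewer cells of a type and less RNA per cell cannot be told apart.

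**Figure D1:**
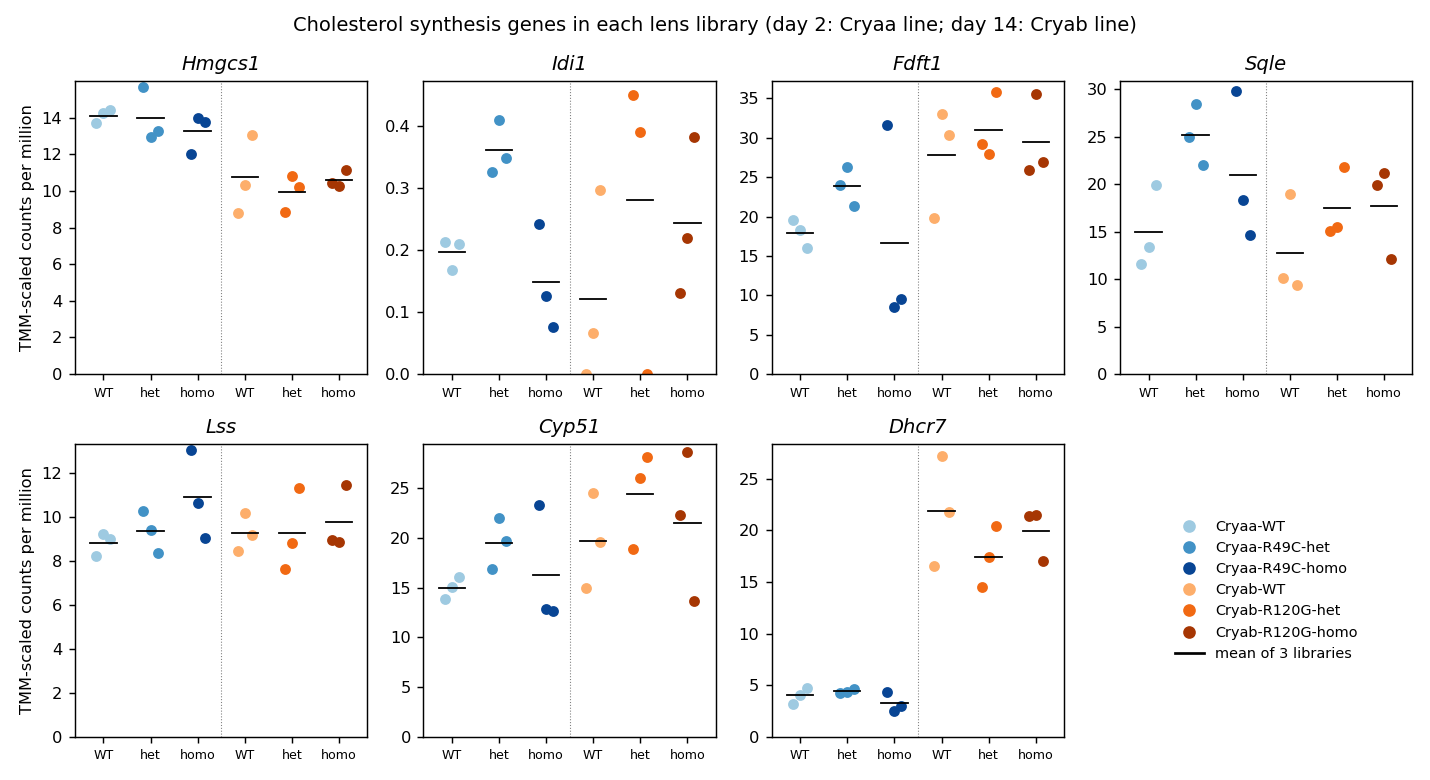
CPM (TMM-scaled, linear axes from 0) of the 7 genes in each of the 18 libraries, as points by group, with a bar at the mean of the 3 libraries. Dhcr7 was 2.51 to 4.73 CPM in the 9 libraries of day 2 and 14.5 to 27.1 CPM in the 9 of day 14, and Cryaa-R49C-homo replicate 1 (first of its 3 points) lay above its partners in every panel but that of Hmgcs1.

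The order of levels between genes was taken from the deposited RPKM, which divides by 1 length per gene. These lengths, worked out from the counts, RPKM and library totals, ran from 2861 bases for Fdft1 to 10789 bases for Lss. The order depends on these lengths. Fdft1 made up the largest part of the summed RPKM of the 7 genes in all libraries but Cryaa-R49C-homo replicates 2 and 3, with a median of 34.1% at 2 days (lowest 19.6%, highest 39.5%, n = 9) and 38.0% at 14 days (32.9% to 41.3%). In these 2 libraries Hmgcs1 was the largest, at 28.2% and 28.7% against 19.6% and 22.4% for Fdft1, and in replicate 2 Sqle (21.7%) was also above Fdft1. Hmgcs1, Cyp51 and Sqle followed at 2 days with medians of 22.8%, 19.3% and 18.4%, and their ranges overlapped. Dhcr7 held a median of 4.67% at 2 days (4.09% to 6.39%) and 18.8% at 14 days (15.5% to 22.4%), with no overlap between the ages. Lss, at medians of 4.27% and 3.01%, and Idi1, at 0.307% and 0.192%, were the lowest by median. In the Cryaa-R49C-homo libraries Lss was above Dhcr7, at 4.32%, 6.44% and 5.65% beside 4.09%, 4.34% and 5.35%. These shares are taken within a library and do not depend on how libraries are scaled to each other.

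**Figure D2:**
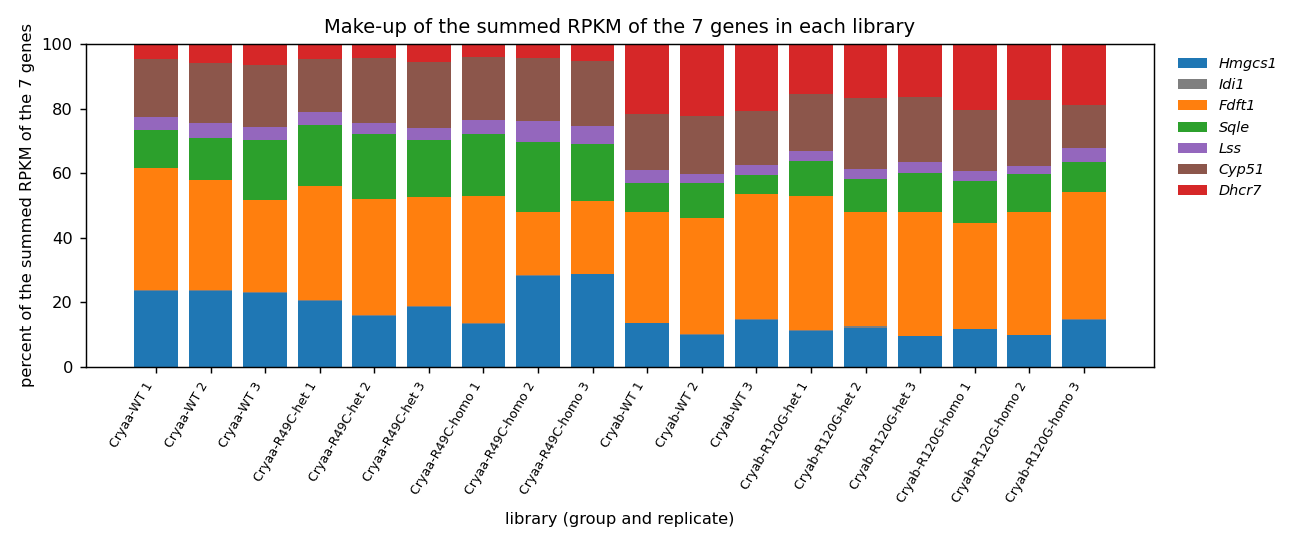
Percent of the summed RPKM of the 7 genes that each gene held in each library, stacked to 100. The Dhcr7 part at the top was 4.09% to 6.39% in the libraries of day 2 and 15.5% to 22.4% in those of day 14.

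Hmgcs1 (ENSMUSG00000093930, chromosome 13, 119690379 to 119708260, plus strand, GRCm38) encodes the cytosolic synthase that makes HMG-CoA, a precursor of mevalonate. It was the steadiest of the better-measured genes at 2 days. Its level was 14.1 CPM ± 0.359 (SD, n = 3) in Cryaa-WT, 14.0 ± 1.48 in Cryaa-R49C-het and 13.3 ± 1.06 in Cryaa-R49C-homo. The 3 groups overlapped. In the Cryab line it was 10.7 ± 2.15 in Cryab-WT, 9.96 ± 1.02 in Cryab-R120G-het and 10.6 ± 0.475 in Cryab-R120G-homo, and these groups overlapped too.

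Idi1 (ENSMUSG00000058258, chromosome 13, 8885501 to 8892451, plus strand), the isomerase that interconverts the isoprenoid building blocks, was counted at 0 to 14 reads per library. It was at 0 in Cryab-WT replicate 1 and Cryab-R120G-het replicate 3, so that differences in it were not detectable at this depth unless very large. Its intervals were the widest of the 7: for Cryab-R120G-homo against Cryab-WT the 95% interval of the log2 difference ran from -1.17 to 2.87. Of 3594 stretches of 50 bases, the length of a read, in its transcripts, 25.3% also occur in a transcript of another gene, the most, 635, in the processed pseudogene Gm13502, which itself was counted at 0 or 1. Of the stretches of Fdft1 26.5% occur in a transcript of another gene. These include 725 in its neighbour Ctsb and 396 in the processed pseudogene Gm6781, which was counted at 0 to 10. Both strands of the other transcripts were searched. Ctsb overlaps Fdft1 on the other strand, so a stretch shared with it need not have another place in the genome. The same holds for 464 stretches of Hmgcs1 in Gm48342 and 274 of Idi1 in Gm48574. For the other genes the shares were lower: 11.6% of the stretches of Hmgcs1, 2.77% of those of Cyp51, 1.86% of those of Lss, 1.37% of those of Dhcr7 and 0.0358% of those of Sqle. Reads with more than 1 place in the genome were not counted, and the part of this in the low counts was not tested. The related gene Idi2 did not pass the filter.

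Fdft1 (ENSMUSG00000021273, chromosome 14, 63145150 to 63179578, minus strand) encodes squalene synthase, the first enzyme committed to sterols. Its level was 19.5, 18.3 and 16.0 CPM in Cryaa-WT, 24.1, 26.4 and 21.4 in Cryaa-R49C-het, and 31.7, 8.57 and 9.50 in Cryaa-R49C-homo. All 3 heterozygous libraries lay above all 3 wild-type libraries, while of the homozygous libraries replicate 1 lay above and replicates 2 and 3 below every other library of the line. In the Cryab line it was 19.8, 33.1 and 30.4 in Cryab-WT, 29.3, 27.9 and 35.9 in Cryab-R120G-het, and 25.9, 35.6 and 26.9 in Cryab-R120G-homo, with all groups overlapping. The exons of Fdft1 share 774 of 4227 bases (18.3%) with exons of Ctsb, the gene of the protease cathepsin B, on the other strand. Whether counting used strand is not given in the sources used here. Ctsb was counted at 66.6, 31.0 and 36.0 CPM in the 3 Cryaa-R49C-homo libraries, so it too was highest in replicate 1.

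Sqle (ENSMUSG00000022351, chromosome 15, 59315077 to 59331192, plus strand) encodes squalene epoxidase, another slow step of the pathway. Its level was 11.6, 13.4 and 19.9 CPM in Cryaa-WT, 25.0, 28.5 and 22.1 in Cryaa-R49C-het, and 29.9, 18.4 and 14.7 in Cryaa-R49C-homo. The heterozygous libraries lay above the wild-type libraries and the homozygous ones overlapped both. In the Cryab line it was 10.1, 18.9 and 9.34 in Cryab-WT, 15.0, 15.5 and 21.8 in Cryab-R120G-het, and 19.9, 21.2 and 12.2 in Cryab-R120G-homo, all overlapping.

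Lss (ENSMUSG00000033105, chromosome 10, 76531588 to 76557138, plus strand) encodes lanosterol synthase, which folds squalene epoxide into the first sterol. Its group means differed least among the 7 genes, from a mean of 8.81 CPM ± 0.525 (SD, n = 3) in Cryaa-WT to 10.9 ± 2.03 in Cryaa-R49C-homo, and its means in the Cryab line were 9.29, 9.27 and 9.76. Cyp51 (ENSMUSG00000001467, chromosome 5, 4081145 to 4104746, minus strand), the lanosterol demethylase, was 13.8, 15.0 and 16.1 CPM in Cryaa-WT, 16.8, 22.0 and 19.7 in Cryaa-R49C-het, and 23.2, 12.8 and 12.7 in Cryaa-R49C-homo. As for Fdft1, the heterozygous libraries lay above wild type and homozygous replicate 1 above its partners. In the Cryab line Cyp51 was 13.6 to 28.6 CPM and the groups overlapped.

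Dhcr7 (ENSMUSG00000058454, chromosome 7, 143823145 to 143848410, plus strand) was 3.19, 4.08 and 4.73 CPM in Cryaa-WT, 4.22, 4.30 and 4.66 in Cryaa-R49C-het, and 4.34, 2.51 and 3.00 in Cryaa-R49C-homo. The day 2 groups overlapped. At 14 days it was 16.5, 27.1 and 21.8 in Cryab-WT, 14.5, 17.4 and 20.4 in Cryab-R120G-het, and 21.3, 21.5 and 17.0 in Cryab-R120G-homo. Every library of day 14 was above every library of day 2, and the genotypes of the Cryab line overlapped.

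The first question was whether a single mutant allele changed the pathway. None of the 7 genes passed an adjusted p of 0.05 in Cryaa-R49C-het against Cryaa-WT (edgeR's quasi-likelihood test over all 13938 genes, Benjamini-Hochberg adjustment), a contrast in which 0.00717% of all genes were called and 708 genes had an unadjusted p under 0.05. For 4 of the 7, Idi1, Fdft1, Sqle and Cyp51, the heterozygous libraries lay above the wild-type libraries without overlap. Over all genes 21.9% did not overlap in either direction and 9.57% did not overlap with the heterozygotes higher. Sqle had the largest difference among the 6 genes other than Idi1, at 0.75 on the log2 scale (SE 0.30, a ratio of 1.68, 95% interval 1.09 to 2.58, adjusted p = 0.84). Fdft1 and Cyp51 differed by 0.41 (SE 0.34) and 0.38 (SE 0.27). The median over the 7 genes was 0.38, against -0.014 for all genes.

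Another 12 enzymes of the pathway differed in Cryaa-R49C-het by -0.38 (Tm7sf2, SE 0.35) to 0.67 (Mvd, SE 0.30) on the log2 scale, with Lbr at -0.12 and Mvk at 0.053. None was called, their median was 0.36, and 7 of them, Pmvk, Mvd, Fdps, Msmo1, Nsdhl, Ebp and Sc5d, were higher in all heterozygous libraries than in any wild-type library, with none lower. With library size as the only scaling, 3 of the 7 genes and 4 of the 12 were without overlap, all higher, beside 11.8% of all genes without overlap and higher. The median of all genes was then 0.21 and that of the 7 genes 0.58.

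**Figure D3:**
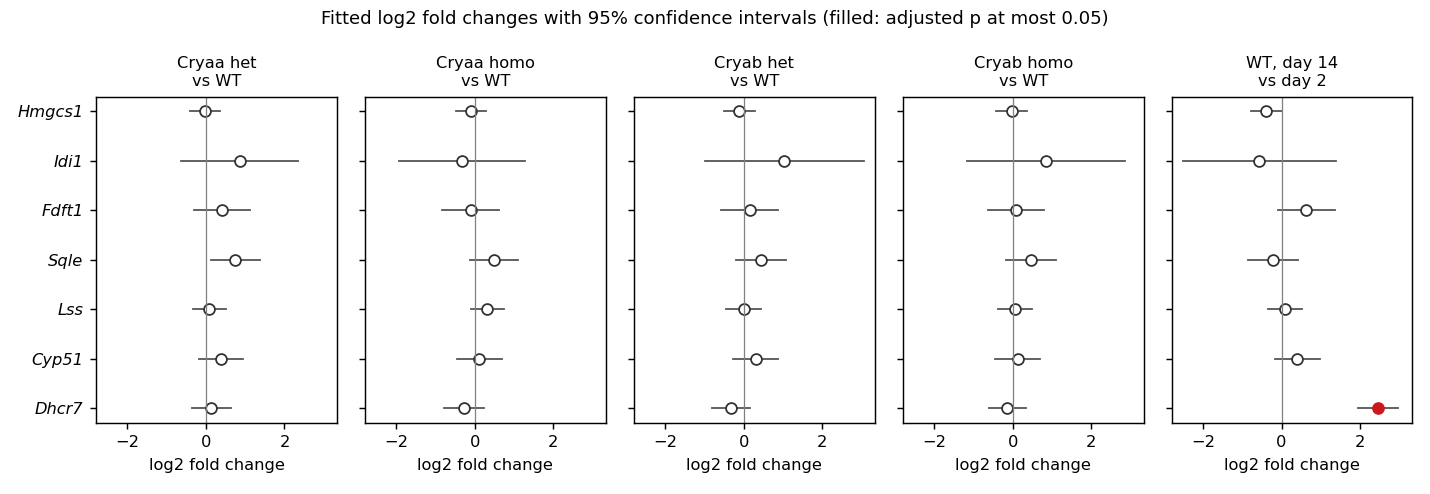
Fitted log2 fold changes of the 7 genes in 5 comparisons, with 95% confidence intervals as bars and filled points where the adjusted p was at most 0.05. Among these comparisons the filled point is that of Dhcr7 at day 14 against day 2, at 2.45, and the widest bars are those of Idi1.

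The second question was what 2 mutant alleles did in the Cryaa line. In Cryaa-R49C-homo against Cryaa-WT 9.79% of all genes were called, and none of the 7. No gene of the 7 was without overlap, against 24.5% of all genes. The largest difference was Sqle at 0.49 (SE 0.30, adjusted p = 0.34), which was 0.14 without Cryaa-R49C-homo replicate 1 and 0.74 without Cryaa-WT replicate 3. The median was -0.091 against 0.0047 for all genes. With library size as the only scaling the medians were 0.40 and 0.41, and Sqle differed by 0.87 without being called. Against Cryaa-R49C-het, 8.32% of all genes were called and none of the 7, and Idi1 alone did not overlap (2 to 11 counts in Cryaa-R49C-homo, 12 to 14 in Cryaa-R49C-het), against 22% of all genes. These comparisons share their libraries in pairs, so their values are not independent.

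Cryaa-R49C-homo replicate 1 stood apart in most of these genes. The median of the 7 against wild type was -0.24 without it, and 0.21 and 0.17 without replicates 2 and 3. Fdft1 was 3.51 times the mean of replicates 2 and 3 in it, Cyp51 1.83 times, Sqle 1.80 times, Dhcr7 1.57 times and Lss 1.33 times, while Hmgcs1 was 0.868 times. Among the 12 other enzymes 10 were highest in replicate 1, the exceptions being Tm7sf2 and Lbr, and the ratio reached 4.14 in Pmvk, the phosphomevalonate kinase, and 3.47 in Fdps, the farnesyl pyrophosphate synthase. Replicate 1 was the highest of the 3 libraries for 39.4% of all genes tested. The summed CPM of the 19 enzymes was 249.8 in replicate 1, 130.7 in replicate 2 and 118.9 in replicate 3, beside 152.4 to 163.5 in Cryaa-WT. Other measures moved with it: the long non-coding RNA Gm42418 took up 2.53% of the counts of replicate 1, 24.5% of replicate 2 and 42.6% of replicate 3, and the lens fibre markers summed to 168710, 80932 and 58331 CPM. Macrophage and microglia markers summed to 18.9, 35.9 and 37.7 CPM, and vessel and mesenchyme markers to 33.3, 78.2 and 67.5 CPM, so both were lowest in replicate 1. Their part in the result was not tested.

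**Figure D4:**
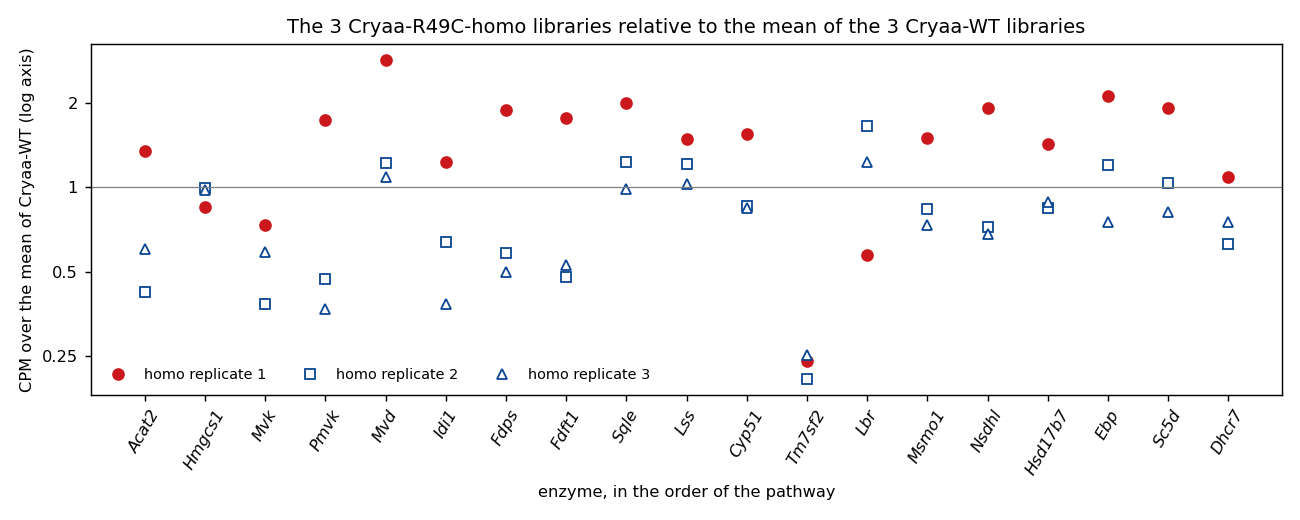
CPM of 19 enzymes of the pathway in each Cryaa-R49C-homo library, divided by the mean of the 3 Cryaa-WT libraries (log axis), in pathway order. Replicate 1 (filled) was the highest of the 3 libraries for 16 of the 19 enzymes, while Tm7sf2 lay far below wild type in all 3.

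Without replicate 1, Fdft1 was called lower in Cryaa-R49C-homo than in Cryaa-WT (1.99-fold lower, log2 difference -0.99, SE 0.22, adjusted p = 0.0016), 1 of 7 genes against 21.5% of all genes called in that fit. Against Cryaa-R49C-het it was 2.66-fold lower (adjusted p = 4.32e-05), and Dhcr7 1.60-fold lower (adjusted p = 0.033), 2 of 7 against 28.7% of all genes. Of the other 12 enzymes 5 were then called lower than in wild type: Acat2, Mvk, Pmvk, Fdps and Tm7sf2, by 1.84-fold (Fdps) to 4.32-fold (Tm7sf2). This leave-one-out for genes other than the 7 was chosen after seeing the data. With replicate 1 in the fit, 1 of the 12 was called, Tm7sf2, beside 9.79% of all genes. A likelihood-ratio test with robust dispersions called Fdft1 lower with all 3 libraries, by 0.76 against Cryaa-WT (adjusted p = 0.033) and by 1.18 against Cryaa-R49C-het (adjusted p = 0.000445) on the log2 scale. That test called 20.7% and 21.9% of all genes.

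Tm7sf2, a sterol C14-reductase that acts just after Cyp51, was the 1 of the 19 enzymes whose 3 homozygous libraries all lay below those of wild type. Its level was 2.55, 1.86 and 1.93 CPM in Cryaa-WT, 1.23, 1.93 and 1.72 in Cryaa-R49C-het, and 0.506, 0.440 and 0.532 in Cryaa-R49C-homo. It was 4.25-fold lower than in wild type (log2 difference -2.09, SE 0.39, adjusted p = 0.0010) and 3.27-fold lower than in Cryaa-R49C-het (adjusted p = 0.0074), without overlap. Lbr, the lamin B receptor, which has the same reductase activity, was 2.31, 6.69 and 4.98 CPM in Cryaa-R49C-homo beside 3.31 to 4.48 in Cryaa-WT.

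Among the 7 genes of SREBP control, Mbtps2, the site-2 protease that releases SREBP from the membrane, rose 2.12-fold in Cryaa-R49C-homo against Cryaa-WT (adjusted p = 0.0080), and the other 6 did not pass the test. Over all genes 9.79% were called in this comparison. Of 9 genes of other isoprenoid branches, Coq2, of ubiquinone synthesis, rose 1.97-fold (adjusted p = 0.030). None of 8 uptake genes, 8 tested efflux and oxysterol genes or 8 fatty acid synthesis genes was called against wild type. Without Cryaa-R49C-homo replicate 1, 3 of 8 uptake genes were called (Vldlr higher, and Npc2 and Lipa lower), 2 of 9 efflux and oxysterol genes (Nr1h2 and Cyp7b1, both lower), 2 of 8 fatty acid genes (Me1 higher and Elovl6 lower) and 2 of 9 isoprenoid genes (Coq2 higher and Fnta lower), beside the 21.5% of all genes in that fit. Against Cryaa-R49C-het, Vldlr, a lipoprotein receptor, rose 2.11-fold (adjusted p = 0.0040) and Abca1, a cholesterol exporter, 2.58-fold (adjusted p = 0.013), along with Mbtps2 and Coq2, each the 1 gene called of its list, beside 8.32% of all genes. Macrophage and microglia markers moved with these genes: their sum was 8.96 to 14.8 CPM in Cryaa-R49C-het and 18.9 to 37.7 in Cryaa-R49C-homo, and 3 of 8, C1qa, C1qc and Mrc1, were called higher. Of 8 vessel and mesenchyme markers 2, Cdh5 and Pdgfrb, were called higher, with sums of 27.9 to 31.5 and 33.3 to 78.2 CPM. Of 10 fibre markers tested Bfsp1 was called lower, and of 8 pigment cell markers Pmel was. Of 6 epithelium markers tested Gja1 was called lower and Itga6 higher. No photoreceptor, inner retina and glia or erythroid marker was called. Their part was not tested.

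In the Cryab line no gene of the 7 was called in any comparison. In Cryab-R120G-het against Cryab-WT 0.00717% of all genes were called and no gene of the 7 was without overlap, against 10.1% of all genes. In Cryab-R120G-homo against Cryab-WT the figures were 0.0502% of all genes called and 9% without overlap, again with none of the 7. In that comparison 7 genes were called, and 18 with replicate number as a block, none of them among the 7. Sqle had the largest difference of the 6 better-counted genes in both, at 0.44 (SE 0.31) and 0.47 (SE 0.31). Single libraries moved these values: with each left out in turn they ran from 0.25 (without Cryab-R120G-het replicate 3) to 0.84 (without Cryab-WT replicate 2), and from 0.28 (without Cryab-WT replicate 3) to 0.87 (without Cryab-WT replicate 2), none of them called. Its 95% interval for the homozygotes, -0.17 to 1.10, reached a level 2.15 times that of wild type. For Hmgcs1 the interval was -0.42 to 0.38. Cryab-WT replicate 1 was low for the 7 genes, at 78.7 CPM in sum beside 124.3 and 103.7 in replicates 2 and 3. Without it the median of the 7 was -0.033 in Cryab-R120G-het and -0.032 in Cryab-R120G-homo, against 0.16 and 0.083 with it. Its photoreceptor markers summed to 879 CPM, beside 25.0 and 89.3 in replicates 2 and 3. The part of this was not tested. With the Cryab-R120G-homo libraries set against those of Cryab-R120G-het, 0% of all genes were called (273 had an unadjusted p under 0.05, DESeq2 called 0, and edgeR without the filter on low counts called 15) and 6.86% were without overlap, none of them among the 7. None of the genes of the 6 fixed lists around the pathway was called in the Cryab line.

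Whether 2 mutant alleles changed the 7 genes differently in the 2 lines was tested as an interaction. It called 2.91% of all genes and none of the 7, and the largest interaction among the 6 better-counted genes was -0.25 (SE 0.29) in Lss. Without Cryaa-R49C-homo replicate 1, the interaction of Fdft1 was 1.07 (adjusted p = 0.013, with 12.5% of all genes called), while the difference of Fdft1 in Cryab-R120G-homo itself was 0.083 (SE 0.35).

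The last comparison set wild-type lenses of day 14 (Cryab-WT) against those of day 2 (Cryaa-WT). It called 23.2% of all genes and 1 of the 7. Dhcr7 rose by 2.45 on the log2 scale (SE 0.25, adjusted p = 5.42e-07), and 213 of 13938 genes had a larger increase. Hmgcs1 was without overlap and lower, at -0.39 (SE 0.19, adjusted p = 0.14), and Fdft1 without overlap and higher, at 0.63 (SE 0.35, adjusted p = 0.20), so that 3 of the 7 did not overlap, against 43.2% of all genes. Cyp51, Lss and Sqle differed by 0.40, 0.079 and -0.22, with intervals that included 0.

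With library size as the only scaling the median of all genes fell by 1.61 on the log2 scale between day 2 and day 14, and all 7 genes were then called, as were 83.2% of all genes. Dhcr7 was still higher, by 0.87 (adjusted p = 0.021), and the other 6 were lower. Relative to that median the values were 2.48 for Dhcr7, 0.72 for Fdft1, 0.45 for Cyp51, 0.14 for Lss, -0.22 for Sqle, -0.35 for Hmgcs1 and -0.44 for Idi1. On the deposited RPKM, which are not TMM-scaled, Dhcr7 was 1.11, 1.30 and 2.50 in Cryaa-WT and 2.17, 3.91 and 2.81 in Cryab-WT, which overlap.

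**Figure D5:**
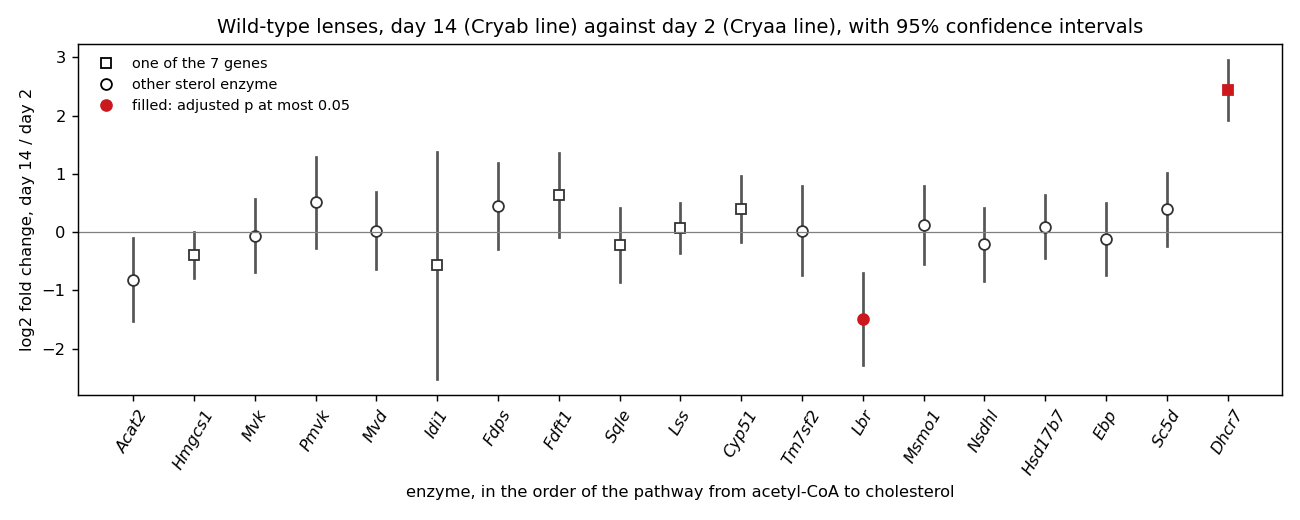
Log2 fold change of 19 enzymes in wild-type lenses of day 14 against day 2, in pathway order, with 95% confidence intervals. Squares are the 7 genes and circles the other enzymes, and points are filled where the adjusted p was at most 0.05: Dhcr7 above 0 and Lbr below.

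Of the other 12 enzymes none was called higher with age on the TMM scale and 1 was called lower, Lbr, by 2.82-fold (adjusted p = 0.0067), beside 23.2% of all genes called in either direction.

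On the TMM scale, among the 7 control genes, Srebf1 rose 1.72-fold and Insig2 1.92-fold with age, and Srebf2, the gene of SREBP-2, was 1.82-fold lower (adjusted p = 0.041, 0.032 and 0.0079). Vldlr, Lipa, the lysosomal lipase, and Stard4, a sterol carrier, were lower by 2.29-, 2.43- and 1.94-fold, 3 of 8 uptake genes with none higher, beside 11.5% of all genes called lower in this comparison. Abcg1, Apoe and Cyp46a1, of cholesterol export and oxysterol synthesis, were lower by 3.64-, 3.94- and 3.56-fold, 3 of 8 with none higher. Of the fatty acid genes Fasn was lower by 1.79-fold and Me1 rose 1.77-fold, and Coq2 rose 1.85-fold. With library size as the only scaling Srebf1, Insig2, Me1 and Coq2 turned to lower, by 0.57 (Insig2) to 0.78 (Srebf1) on the log2 scale, while relative to the median gene they were higher by 0.83 to 1.04. Markers of several cell types moved with these results. Of the fibre markers 7 of 10 tested were called higher, with sums of 138950 to 206240 CPM in Cryaa-WT and 679500 to 722280 CPM in Cryab-WT. All 8 macrophage and microglia markers were called lower, at 8.37 to 17.0 CPM in sum in Cryaa-WT and 0.667 to 2.20 in Cryab-WT, and so were 5 of 8 pigment cell markers (18.6 to 36.0 and 6.60 to 8.31 CPM). Of 8 inner retina and glia markers 3 were lower, of 8 photoreceptor markers 5 were higher, and of 8 vessel and mesenchyme markers 5 were lower and 1 higher. Of the lens epithelium markers 1 was higher and 2 lower of 6 tested, and none of the 5 erythroid markers was called. The part of these cell types in the results was not tested.

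Across the 18 libraries the genes most like the 7 were sought by Pearson's r with the mean of the 7 standardised log2 CPM. This mean is not a profile shared by all 7. With line means removed, r between pairs of Fdft1, Sqle, Cyp51 and Dhcr7 was 0.47 to 0.80. Hmgcs1 had r of -0.25 (Sqle) to 0.23 (Idi1) with the other genes, and Idi1, counted at 0 to 14 reads, -0.18 (Lss) to 0.38 (Fdft1). With the mean of each line removed, the 8 most alike of 13931 genes were Zswim1 (r = 0.91), Osgepl1, Zdhhc6, Tefm, Arl16, Ccnh, Snx7 and Ppcs (r = 0.89 at the least), and as measured they were Zswim1 (r = 0.93), Osgepl1, Aagab, Tefm, Polr1c, Ppcs, Usp5 and Aasdhppt. None of these is an enzyme of sterol synthesis. With line means removed, the other 12 enzymes ranked from 121 (Msmo1, r = 0.83) and 151 (Sc5d, r = 0.82) to 13304 (Lbr, r = -0.65). Between these were Pmvk at 306, Fdps at 325, Acat2 at 404, Nsdhl at 552, Mvd at 1234, Ebp at 1838, Hsd17b7 at 2556, Mvk at 3047 and Tm7sf2 at 7227 (r = -0.049). The SREBP control and uptake genes ranked from 651 (Insig2, r = 0.73) to 13909 (Scap, r = -0.82). The libraries share groups, scaling and depth, so these are descriptions.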

How the data were processed

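The authors aligned single 50-base reads of poly(A)-selected RNA with STAR 2.0.4b to Ensembl GRCm38.76 and counted uniquely aligned, unambiguous reads per gene with featureCounts 1.4.5, and they deposited these as raw counts and, separately, as RPKM (reads relative to gene length and library size). The strand setting is not given in the sources used here. Groups came from sample titles, because the genotype field of the 6 Cryab mutant libraries names the other line. The 7 genes and the gene lists were chosen with earlier results of these data known.

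Counts were analysed with edgeR 4.0.16 in R 4.3.3: filterByExpr, TMM factors, 1 model over 6 groups and 18 libraries with robust dispersions, quasi-likelihood tests of 8 contrasts, and Benjamini-Hochberg adjustment over 13938 genes, called at 0.05. RPKM were used for shares between genes within a library only and, for Dhcr7, as deposited. Log2 CPM had a prior count of 2. Repeated lines of a gene in the table (41422 lines, 40800 genes) were counted once. The script was tested on simulated data. Named genes were the 7, the other 12 enzymes, the called members of the other lists, and the 8 most alike. A few more were named for sequence shared with the 7, for counting or for their place in a list. Some genes of these lists are not reported here, and the lists were counted without them. No 2 libraries of a group agreed within sampling noise (chi-square per degree of freedom at least 7.78). Replicates pool several lenses. Same-numbered libraries deviated together (r over 0.1 in each pair) in Cryab-R120G-homo against Cryab-WT, at r = 0.28, 0.18 and 0.16, and in no other comparison; the block changed no call among the 7. The point substitutions themselves cannot be checked in gene counts.

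Coordinates are from GENCODE vM21 (GRCm38), matched by Ensembl identifier, and promoter windows from RefSeq (GRCm38.p6). Alternatives were another filter, 3 other scalings, DESeq2 1.42.0, a likelihood-ratio test, fewer libraries, a replicate block and each replicate left out.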

Additional observations from a re-analysis of the deposited data

How the results depend on the processing

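Among the 7 genes, as far as each could be tested, 0 were called in every alternative of Cryaa-R49C-het against Cryaa-WT and of the 3 Cryab contrasts. With library size alone all 7 were called for day 14 against day 2, and Fdft1 (-0.90), Lss (-1.48) and Cyp51 (-1.17) turned to lower. The likelihood-ratio test called 1 of the 7 in Cryaa-R49C-homo against Cryaa-WT, 1 against Cryaa-R49C-het and 2 (Fdft1 and Dhcr7) with age, and a fit of the groups compared alone called 2 with age. Leaving out single replicates gave 0 to 1 of the 7 for Cryaa-R49C-homo against Cryaa-WT, 0 to 2 against Cryaa-R49C-het and 0 to 1 for the interaction, the highest value each time without Cryaa-R49C-homo replicate 1. Dhcr7 with age stayed called, at 0.87 to 2.61 on the log2 scale. Of 851 recomputed values 82 changed sign, 3 of them called.

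With replicate number as a block, 0 of the 7 were called for each genotype contrast and 1 with age. The block raised the genes called for Cryab-R120G-homo against Cryab-WT from 7 to 18 and for Cryab-R120G-het from 1 to 3, and lowered those with age from 3237 to 1333.

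Over all alternatives the genes called ranged from 0 to 17 (1 in the main analysis) for Cryaa-R49C-het, 478 to 3094 (1365) for Cryaa-R49C-homo, 294 to 4131 (1160) for homozygotes against heterozygotes of that line, 0 to 140 (1), 1 to 302 (7) and 0 to 15 (0) for the same Cryab contrasts, 209 to 1800 (406) for the interaction and 1333 to 11593 (3237) with age. With library size alone 88.1% of the calls for Cryaa-R49C-homo against Cryaa-WT and 1.35% of those with age were higher. In the main analysis these shares were 49.7% and 50.5%. Idi1 failed the filter, and so was not tested, without crystallin genes and Gm42418, in the 3 Cryab contrasts when only the line or the groups compared were fitted, and with only the groups compared for Cryaa-R49C-homo against Cryaa-WT, the interaction and age. The cause of these changes was not tested. With 3 libraries a group, exact permutation of a single gene cannot go below p = 0.1.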
